A study of Mus musculus with 17 samples.

Results

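The 6 hypothalamus arrays of streptozotocin-treated mice were set against the 6 hypothalamus arrays of vehicle-treated controls, 12 of the 17 arrays in the series. The arrays were chosen by their titles alone, which call the treated group streptozotocin-induced diabetic, and genes were described across the whole array. All 12 mice were male, wildtype C57Bl/6 and 9 weeks old. The STZ group had received 1 intraperitoneal injection of streptozotocin at 200 µg per g of body weight, and the controls the vehicle in the same volume. The other 5 arrays came from male C57Bl/6 ob/ob mice of the same age, which lack leptin. Their values are set beside those of the STZ group, and they also entered the signal filter and the shared estimate of spread. Per the labels, RNA of each hypothalamus went onto an array of its own, so a replicate is a mouse. The labels give no blood glucose, body weight or interval between injection and dissection, and effects of the toxin itself cannot be told apart from those of diabetes.

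Streptozotocin enters the insulin-producing beta cells of the pancreas and kills them, which leaves an animal short of insulin and with high blood glucose. The hypothalamus reads insulin, leptin and glucose: neurons that make the Pomc precursor restrain feeding, and neurons that make Npy drive it. Interferons, through STAT transcription factors, switch on a shared set of genes in nearly every cell type, among them those that display peptides on MHC class I.

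Values were MAS5 signals, the array software's estimate of brightness for each probe set, on an arbitrary linear scale. Fold changes are log2 differences of group means (n = 6 and 6) with their standard error (SE) from limma. The spread behind each SE and p was estimated over all 17 arrays, those of ob/ob included. The arrays correlated with each other at 0.9543 to 0.9724, and their median signals ran from 637.6 to 696.6 in the controls and from 640.55 to 707.05 in the STZ group. Of 22626 probe sets, 13576 passed a filter on mean signal (a geometric mean of 434.9 over the 17 arrays) and were tested, standing for 7990 genes. The labelled tissue matched its markers in part: the peptides Avp, Oxt, Sst and Hcrt had median signals from 6557 to 13531 in both groups, and the transcription factors Sim1, Six3 and Isl1 passed the filter, while Nkx2-1, Otp, Rax and Six6 did not. The Y-linked Eif2s3y, Kdm5d and Uty passed the filter, as did 1 of 3 probe sets of Xist, at medians of 454.5 in the controls and 535.1 in the STZ arrays. Of 8 pituitary and 3 blood cell markers on the array 0 passed the filter. The mean log2 level of 15 markers of neighbouring striatum, cortex and thalamus was 11.14 in the STZ arrays and lower by 0.14 in the controls (exact two-sided permutation p = 0.0952), and with that level as a covariate 6 probe sets passed the adjusted threshold. They include 5 of the 7 called without it, while Pomc (adjusted p = 0.209) and the called probe set with several symbols no longer passed. In bulk tissue, fewer cells of a type and less RNA per cell cannot be told apart.

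In the STZ hypothalamus, genes of MHC class I and the interferon-induced GTPase Igtp rose, a probe set of the glucose transporter Slc2a1 rose, and the feeding-restraining peptide precursor Pomc fell. The Igtp call (adjusted p = 0.0741) and the Pomc call were lost without the signal filter. Igtp rose 2.03-fold, H2-K1, a heavy chain of MHC class I, 1.45-fold and B2m, its light chain, 1.3-fold. These 5 genes account for 6 of the 7 probe sets with an adjusted p under 0.05 (0.0516% of those tested). Of the 7, 6 were higher and 1 lower, and on each the STZ arrays did not overlap the controls. The seventh probe set carries several gene symbols and is not named. It rose by 0.51 ± 0.077, with signals of 3280.1 to 4439.7 (median 3540.2) in the controls and 4616 to 5903 (median 5175) in the STZ arrays (adjusted p = 0.0137).

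**Figure D1:**
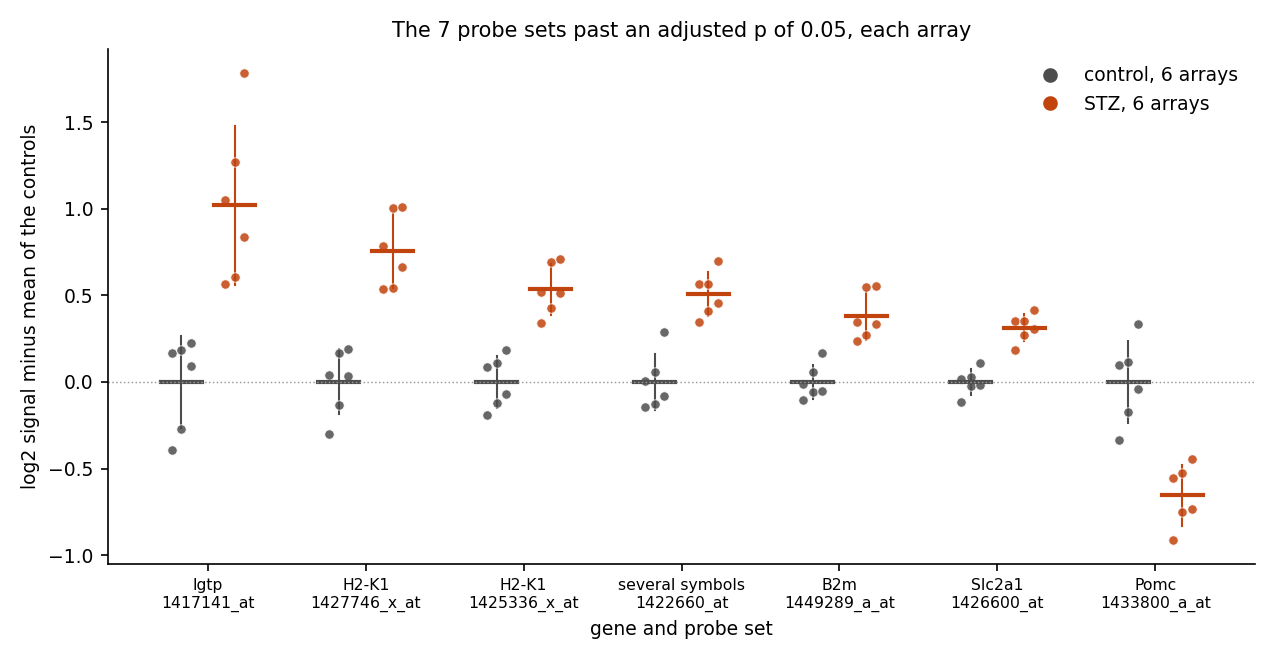
Log2 signal of each array minus the mean of the controls for the 7 probe sets past an adjusted p of 0.05. Dots are arrays (6 control, 6 STZ), horizontal bars the group means and vertical lines 1 SD. No STZ array overlaps a control array, and Igtp spreads most widely among the STZ arrays.

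Across the array the shift was small. The median log2 fold change over all genes was 0.0044, the median SE 0.078, and 51.7% of genes had a positive value. At an unadjusted p under 0.05 there were 340 genes higher and 340 lower (4.26% of genes tested on each side), or 183 higher and 460 lower when every array was centred on its own median signal. Genes whose 6 STZ arrays all lay above the 6 controls numbered 16 (0.2%), and 24 lay wholly below (0.3%). Only 12 genes stood above 0.5 and 3 below -0.5 on the log2 scale.

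Members of gene lists are given below against this background. For a list, the count is of members at an unadjusted p under 0.05, and such members are not called changed.

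The start regions of the interferon-related genes are shown first because the 4 printed here hold a match to an interferon-type element. The RefSeq promoter table (build GRCm38.p6) holds 250 bases before and 50 after each start site. Capitals mark matches to GAAANNGAA, the core of the interferon-stimulated response element, to TTCNNNGAA, a STAT site, and to GAANNTTC, a heat shock element, searched on both strands.
B2m, chr2:122147437-122147736, plus strand: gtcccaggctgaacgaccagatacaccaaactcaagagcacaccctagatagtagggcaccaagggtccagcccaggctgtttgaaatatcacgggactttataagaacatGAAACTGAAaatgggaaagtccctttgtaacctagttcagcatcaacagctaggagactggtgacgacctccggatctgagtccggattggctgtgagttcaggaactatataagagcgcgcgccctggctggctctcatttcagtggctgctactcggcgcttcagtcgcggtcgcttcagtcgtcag
Igtp, chr11:58199306-58199605, plus strand: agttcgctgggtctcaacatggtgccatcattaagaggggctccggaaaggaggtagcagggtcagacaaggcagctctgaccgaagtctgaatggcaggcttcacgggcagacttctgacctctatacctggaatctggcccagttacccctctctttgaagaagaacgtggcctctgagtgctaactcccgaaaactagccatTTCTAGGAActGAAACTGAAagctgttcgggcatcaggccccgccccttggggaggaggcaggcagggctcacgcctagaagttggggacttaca
Gbp7, chr3:142530086-142530385, plus strand: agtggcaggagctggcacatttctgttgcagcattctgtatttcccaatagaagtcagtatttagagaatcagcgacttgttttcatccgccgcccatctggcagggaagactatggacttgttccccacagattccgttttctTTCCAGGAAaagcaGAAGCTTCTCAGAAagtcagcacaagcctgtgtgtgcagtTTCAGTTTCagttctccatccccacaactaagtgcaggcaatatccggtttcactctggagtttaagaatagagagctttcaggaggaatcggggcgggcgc
Irgm1, chr11:48871371-48871670, minus strand: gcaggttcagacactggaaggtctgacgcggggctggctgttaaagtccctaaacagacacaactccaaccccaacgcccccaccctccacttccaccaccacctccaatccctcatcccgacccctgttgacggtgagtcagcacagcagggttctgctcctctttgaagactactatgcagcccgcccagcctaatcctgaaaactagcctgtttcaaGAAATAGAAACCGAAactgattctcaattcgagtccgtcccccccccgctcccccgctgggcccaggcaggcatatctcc
The GAAANNGAA match began at -139 from the start site in B2m, at -34 in Igtp and at -52 in Gbp7, where it lies on the opposite strand. Irgm1 holds a pair of matches, at -30 and -24, that share letters. Igtp has a STAT match at -45. Gbp7 has 2 STAT matches, at -106 and -87, and the second shares letters with a heat shock match at -92. Of all 32851 promoters in the table, 8.56% hold GAAANNGAA, 8.3% hold TTCNNNGAA and 7.86% hold GAANNTTC. In the same window no match to these 3 motifs was found for H2-K1, H2-D1, Slc2a1 or Pomc, and none to GAAANNGAA for Tap1 or Psmb9, which says only that these letters are not in this window. A match is a description of letters and not of binding.

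MHC class I presents peptides on the cell surface through a heavy chain bound to B2m. B2m signal was 6109 to 7374 (median 6415) in the controls and 7718 to 9635 (median 8300.0) in the STZ arrays, a rise of 0.38 ± 0.059 (adjusted p = 0.0137). Every STZ array lay above every control. A further B2m probe set gave 0.22 ± 0.069 and did not pass (adjusted p = 0.374), with overlapping groups. H2-K1, a classical heavy chain, rose by 0.53 ± 0.089 on its brightest probe set, with signals of 2052 to 2661 (median 2361) in the controls and 2962 to 3833 (median 3353) in the STZ arrays. On a dimmer one, H2-K1 rose by 0.76 ± 0.12, with signals of 337.5 to 474.6 (median 426.1) in the controls and 603.8 to 836.6 (median 687.7) in the STZ arrays (adjusted p = 0.0219 and 0.0137). The medians of the dimmer probe set in controls and ob/ob arrays, 426.1 and 397.6, lie under the filter, so it was tested on the strength of its STZ arrays, and it passed without the filter too. STZ 4 and STZ 5 were the highest arrays for B2m and for both H2-K1 probe sets. The H2-K1 and H2-D1 probe sets used here are of a kind that can bind near-identical heavy chains, so H2-K1 and H2-D1 signals may share transcripts.

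Of 9 class I genes on the array 5 passed the filter, and 4 of the 5 had an unadjusted p under 0.05, all higher. H2-D1, another classical heavy chain, stood at 0.46 ± 0.11 (adjusted p = 0.191), with signals of 2028 to 2310.1 (median 2092) in the controls and 2389 to 3577 (median 2906) in the STZ arrays, without overlap. H2-M3, a non-classical heavy chain, stood at 0.31 ± 0.094 (adjusted p = 0.316), and its groups did not overlap either. Tapbp, which loads peptide onto the heavy chain, stood at only 0.069. The members under the filter, from a fit without it, were Tap1 at 0.39 ± 0.24 and Tap2 at -0.048 ± 0.31, the peptide transporters, Erap1, a peptide trimmer, at -0.0026 ± 0.1 and Tapbpl at 0.047 ± 0.15. The median over the 5 tested members was 0.38, against 0.0044 over all genes.

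The immunoproteasome swaps catalytic subunits of the proteasome to favour peptides for class I. Of its subunits and activator, Psmb10 and Psme1 passed the filter. Psmb10 stood at 0.13 ± 0.052 (adjusted p = 0.521). Psmb8, under the filter, had a signal of 134.1 to 260.8 (median 185.8) in the controls and 229.5 to 436.2 (median 329.2) in the STZ arrays, a difference of 0.80 ± 0.20 (adjusted p = 0.243 in the fit without a filter). Its groups overlapped. Psmb9, dimmer still, stood at 0.85 ± 0.52, and Psme1, of the activator cap, at 0.039 ± 0.07. All 4 values were positive, with a wide SE for Psmb9. The 36 constitutive proteasome subunits had a median of -0.0096, with 1 higher and 2 lower at an unadjusted p under 0.05.

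Interferon-induced GTPases of the IRG and GBP families attack the vacuoles of intracellular pathogens. Igtp signal was 329.3 to 505.5 (median 474.5) in the controls and 641.7 to 1495 (median 836) in the STZ arrays, a rise of 1.02 ± 0.18 (adjusted p = 0.0412; exact permutation p = 0.00216, the smallest that 924 divisions of 6 against 6 allow). The lowest STZ array, at 641.7, lay above the highest control, and STZ 5 stood apart at the top. The controls' geometric mean of 433.2 is close to the filter, so Igtp was tested on the strength of its higher arrays. Without the filter its adjusted p was 0.0741, and it passed in 5 of 11 other settings.

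The other GTPases had positive values without passing. Iigp1 stood at 0.83 ± 0.17 (adjusted p = 0.0939), with signals of 450.8 to 605.5 (median 528.4) in the controls and 653.3 to 1606 (median 849.5) in the STZ arrays, and its groups did not overlap. Gbp7 stood at 0.59 ± 0.11 (adjusted p = 0.0507), with signals of 423.9 to 617.9 (median 465.3) in the controls and 566.5 to 833.4 (median 755.3) in the STZ arrays. Only control 3, at 617.9, reached the STZ range. Irgm1 stood at 0.47 ± 0.13 (adjusted p = 0.247), with overlapping groups. In the order of arrays, STZ 5 was the highest of the 12 for Igtp, Iigp1, Gbp7 and Irgm1. Without the signal filter, 10 such GTPases were on the array and all 10 had a positive value, 8 with an unadjusted p under 0.05 (higher in 4.01% of the 12393 genes in that fit, lower in 3.32%), and 0 passed the adjusted threshold. Gbp2 stood at 0.78 ± 0.22, Gbp3 at 0.75 ± 0.19, Irgm2 at 0.73 ± 0.17 and Gbp6 at 0.62 ± 0.21. Mx1 and Mx2, antiviral GTPases of another family, stood at 0.66 ± 0.43 and 0.18 ± 0.29 at median signals of 64.7 and 25.8 in the controls.

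**Figure D2:**
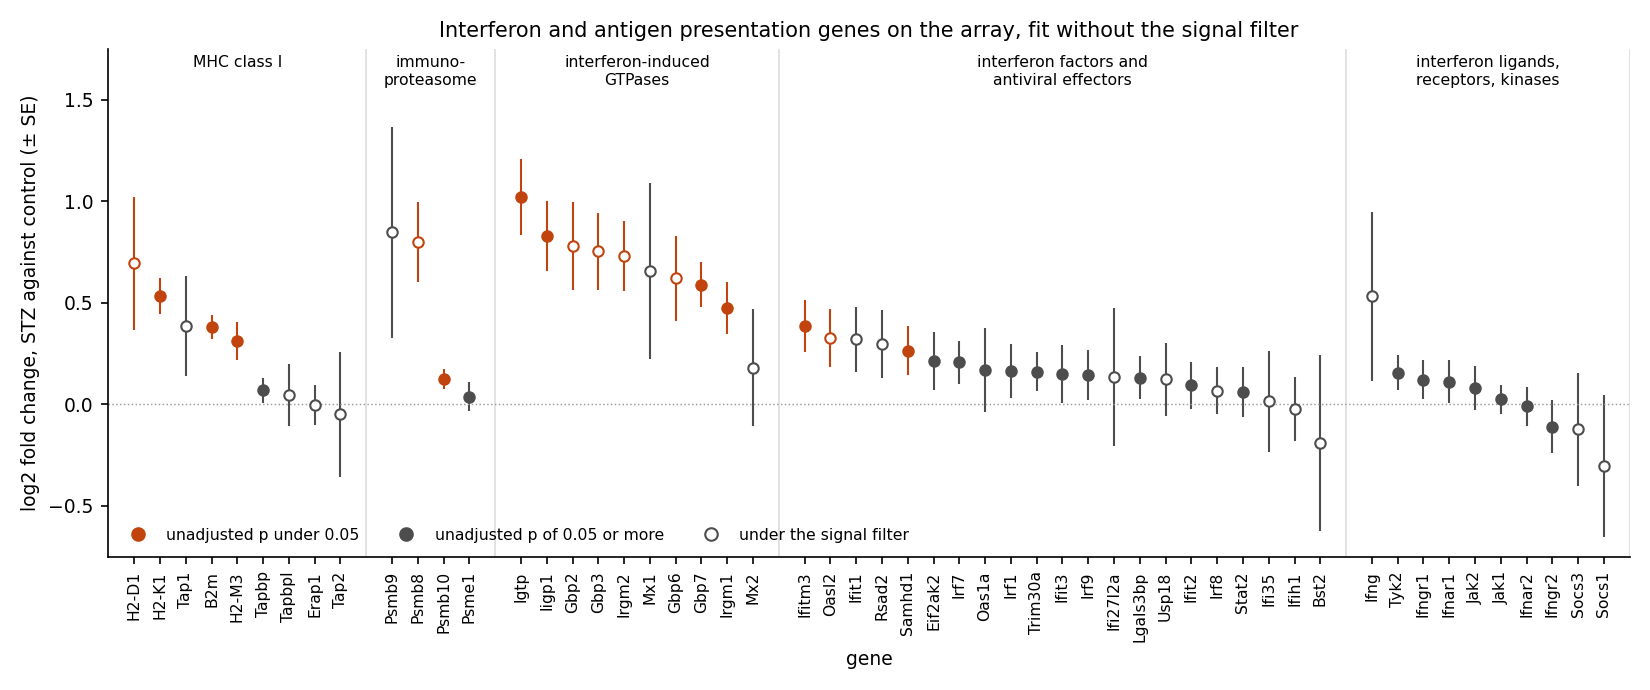
Log2 fold change of STZ against control with its SE for the interferon and antigen presentation genes on the array, from the fit without the signal filter. Orange marks an unadjusted p under 0.05 and open circles genes whose probe set was under the filter; H2-D1 is drawn by a dim probe set other than the one in the main fit. All 10 interferon-induced GTPases lie above 0, as do 19 of 21 transcription factors and antiviral effectors.

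Interferon also induces transcription factors and antiviral proteins. Of 12 transcription factors and antiviral effectors tested all 12 had a positive value, with a median of 0.16 and 2 at an unadjusted p under 0.05. Ifitm3, which blocks viral entry at membranes, stood at 0.39 ± 0.13 (adjusted p = 0.387), and Samhd1, which depletes nucleotides for viral replication, at 0.27 ± 0.12 (adjusted p = 0.568). Irf1, a factor that drives class I and GTPase genes, stood at 0.16 ± 0.13, Irf7 at 0.21 and Irf9 at 0.14. On the array but under the filter, Ifit1 was at 0.32, Rsad2 at 0.30 and Oasl2 at 0.33, while Bst2 was at -0.19 and Ifih1 at -0.022. The 7 receptors and kinases of the pathway that were tested ran from -0.11 to 0.16, with a median of 0.08. Tyk2 stood at 0.16 ± 0.086 and Ifngr1 at 0.12 ± 0.095, and 0 of 7 had an unadjusted p under 0.05. Ifng, the ligand, had a median signal of 66.4 in the controls and 83.1 in the STZ arrays, far below the filter.

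Markers of infiltrating immune cells and of inflammation had 0 tested members at an unadjusted p under 0.05. Of 9 T cell and monocyte markers on the array 1, Lyz2, passed the filter, at 0.17 ± 0.13. The T cell genes Cd3e, Cd8a and Cd4 had median signals of 295.9, 283.4 and 66.9 in the controls and 201.6, 286.4 and 69.6 in the STZ arrays. The signals of that list summed to 2097 to 2459 in the controls and to 1759 to 2846 in the STZ arrays, and its part in the results was not tested. Of 3 inflammatory genes tested 0 had an unadjusted p under 0.05, with Nfkbia, an inhibitor of NF-kappaB, at 0.23 ± 0.15 and Vcam1 at -0.11 ± 0.065, and Il1b, Tnf, Il6 and Ccl2 were under the filter. The complement genes C1qa and C1qb stood at -0.051 ± 0.089 and 0.046 ± 0.054. Microglia markers had a median of -0.0054 over 11 genes, with 1 lower, P2ry12, a purine receptor of resting microglia, at -0.17 ± 0.069.

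By deviations from the group means over the 12 arrays, the genes most like Igtp were St3gal5 and Iigp1 (Pearson's r of 0.843 and 0.838), and those most like B2m were Msn and Crlf2 (both 0.906), followed by Efemp1, Serping1 and Lyz2. The group difference is taken out of these values, and the arrays share their scaling.

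Glucose enters the brain through Slc2a1 of the vessel wall and astrocytes and reaches neurons through Slc2a3. Slc2a1 had signals of 2548 to 2984 (median 2759.8) in the controls and 3141 to 3681 (median 3468) in the STZ arrays on 1 probe set, a rise of 0.31 ± 0.051 (adjusted p = 0.0199), with no overlap. Its brightest probe set gave 0.29 ± 0.064 without passing (adjusted p = 0.134), with the highest control at 4601.4 and the lowest STZ array at 4601.7. The third gave 0.30 ± 0.068 (adjusted p = 0.145). All 3 probe sets lay between 0.29 and 0.31. Slc2a3 stood at 0.004 ± 0.056, with the groups at 8343 to 10324 (median 9465) and 8995 to 10363 (median 9200.4). Among the 5 transporters of glucose and monocarboxylates tested no other had an unadjusted p under 0.05.

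Fuel enzymes had 0 members past the adjusted threshold. Of 16 genes of fasting, ketone use and fatty acid oxidation 1 was higher and 2 lower at an unadjusted p under 0.05. Angptl4, an inhibitor of lipoprotein lipase, stood at 0.46 ± 0.12 (adjusted p = 0.204), with signals of 413.4 to 529.4 (median 446.6) in the controls and 476.8 to 785 (median 641.8) in the STZ arrays, overlapping in 1 STZ array. Acss1, the mitochondrial acetyl-CoA synthetase, stood at -0.25 ± 0.059 (adjusted p = 0.146) and Oxct1, which activates ketone bodies, at -0.093 ± 0.037 (adjusted p = 0.514), both without overlap on these probe sets. The other Oxct1 probe sets overlapped, at 0.16 ± 0.13, -0.11 ± 0.062 and -0.0014 ± 0.13. Hk2, a hexokinase, was the 1 of 16 glycolytic genes with an unadjusted p under 0.05, at -0.23 ± 0.097, and Suclg1 the 1 of 19 of the pyruvate and citrate cycle list, at -0.14 ± 0.058. Pdk4, which shuts pyruvate out of the citrate cycle, was under the filter, at median signals of 385.7 in the controls and 480.9 in the STZ arrays. Txnip, a glucose-induced regulator of redox and glucose uptake, stood at 0.12 ± 0.16 on its brightest probe set and at 0.48 over the mean of its probe sets. Its dimmer probe set gave 0.84 ± 0.36 (adjusted p = 0.544), with controls at 89.9 to 665.6 and STZ arrays at 459.5 to 1107.4.

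Subunits of the respiratory chain stood slightly below 0 as lists. Of 33 complex I genes 20 were negative (median -0.012), of 23 in complexes II to IV 19 were negative (median -0.026), and of 16 in ATP synthase 10 (median -0.016). Ndufab1 stood at -0.10 ± 0.038, Sdhc, an anchor of succinate dehydrogenase, at -0.14 ± 0.049 and Atp5g1, a ring subunit of ATP synthase, at -0.11 ± 0.05, and 0 passed the adjusted threshold. No higher member had an unadjusted p under 0.05. Over the other settings tried, the median of complexes II to IV ran from -0.058 to 0.004.

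Pomc yields the appetite-suppressing peptide alpha-MSH. Its signal was 1332 to 2118 (median 1716) in the controls and 890.8 to 1233 (median 1075) in the STZ arrays, and it fell by 0.65 ± 0.12 on the log2 scale (adjusted p = 0.0384). The highest STZ array lay below the lowest control. The call was lost without the filter, without the trend in eBayes and with the neighbouring-region level as a covariate (adjusted p = 0.209, the highest of any fit). A dimmer Pomc probe set, under the filter, ran from 626.1 to 984.2 in the controls and from 251.0 to 447.3 in the STZ arrays, again with no overlap. Genes most like Pomc across arrays, the group difference taken out, were Palmd (r = 0.903) and Reep2 (r = 0.884).

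Of 7 feeding peptides tested 6 had a negative value (median -0.15). Cartpt, which acts in the same direction on feeding as Pomc, stood at -0.35 ± 0.078 (adjusted p = 0.134), with signals of 3934 to 4779.7 (median 4506) in the controls and 2745 to 4165 (median 3553) in the STZ arrays. STZ 1 alone reached into the control range. Npy, which opposes Pomc, stood at 0.34 ± 0.077 (adjusted p = 0.146), with signals of 2573 to 3172 (median 2912) in the controls and 3042 to 4509.5 (median 3531) in the STZ arrays, with STZ 6 alone inside the control range. Hcrt stood at -0.15, Trh at -0.18, Nts at -0.11 and Gal at -0.06, each within its groups' overlap. Agrp, Pmch and Crh are not analysed here. Among the feeding receptors, Npy2r and Npy5r stood at -0.14 ± 0.13 and 0.077 ± 0.081, and 0 of 4 had an unadjusted p under 0.05. Lepr and Insr, the leptin and insulin receptors, were under the filter.

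Neurosecretory peptides overlapped between the groups. Avp, the antidiuretic hormone, stood at 0.18 ± 0.11 (adjusted p = 0.705), with the controls at 10506 to 13929 (median 12432) and the STZ arrays at 11010.1 to 19936 (median 13531). STZ 3 alone lay far above the rest. Oxt stood at -0.061 ± 0.097, and STZ 3 was its highest array too. Cck was at 0.20 ± 0.11. Of 11 such peptides 0 had an unadjusted p under 0.05. Chgb, a granin of secretory granules, stood at -0.10 ± 0.044, the 1 of 9 processing and granin genes with such a p.

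Insulin and leptin signalling showed 0 of 19 genes higher and 2 lower at an unadjusted p under 0.05 (median 0.041). Grb10, which dampens the insulin receptor, stood at -0.094 ± 0.042, and Pik3ca, a catalytic subunit of PI3-kinase, at -0.13 ± 0.06 (adjusted p = 0.559 and 0.577). The docking proteins Irs1 and Irs2 stood at -0.059 and 0.074 and the forkhead factor Foxo1, which insulin restrains, at 0.21. In the AMPK and mTOR list 3 of 7 had such a p, all higher: Prkab1, a regulatory subunit of AMPK, at 0.26 ± 0.072 (adjusted p = 0.26) without overlap, Ddit4, an inhibitor of mTOR, at 0.42 ± 0.17, and Sesn1 at 0.15 ± 0.07. Other Sesn1 probe sets gave -0.043 ± 0.12 and 0.0395 ± 0.0785. Of the 8 genes of the thyroid hormone axis all had a positive value, with a median of 0.063. Hr, a corepressor induced by thyroid hormone, stood at 0.42 ± 0.11 (adjusted p = 0.237), with signals of 784.4 to 1327 (median 976.4) in the controls and 1139 to 1666 (median 1341) in the STZ arrays. Its other probe set gave 0.03 ± 0.16. Thrb, a receptor, stood at 0.2.

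Glucocorticoids, the adrenal stress hormones, act through the receptor Nr3c1. Among 16 responsive genes 15 had a positive value and 7 an unadjusted p under 0.05, all higher (median 0.18, 0.11 to 0.22 over the other settings). The 7 include Angptl4 and Ddit4, already counted in the fasting and AMPK lists, so these lists are not independent. Tsc22d3, the glucocorticoid-induced leucine zipper, stood at 0.24 ± 0.051 (adjusted p = 0.103), with signals of 4714 to 5501 (median 4967) in the controls and 5692 to 6375 (median 5918) in the STZ arrays, without overlap. Its dimmer probe sets overlapped, at 0.22 ± 0.079 and 0.077 ± 0.11. Plin4, a coat protein of lipid droplets, stood at 0.80 ± 0.19 (adjusted p = 0.176), with signals of 421.9 to 958.3 (median 516) in the controls and 766.8 to 1357 (median 1056) in the STZ arrays. Of the controls 2, at 835.8 and 958.3, lay inside the STZ range. Sult1a1 stood at 0.48 ± 0.14. Sgk1, a kinase, stood at 0.78 ± 0.34, and its controls alone spanned 2462.0 to 11179. Fkbp5, a feedback inhibitor of the receptor, stood at 0.11 ± 0.093 on its brightest probe set and at 0.34 ± 0.15 on another, and Nr3c1 itself at -0.058 ± 0.066. Sgk1 and Ddit4 shared their high arrays: control 2 and control 6, and STZ 2, STZ 4 and STZ 6. The exact permutation p was 0.126 for Sgk1 and 0.0996 for Ddit4.

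Immediate early genes are switched on by neuronal activity. All 8 tested had a positive value (median 0.28), but 1 had an unadjusted p under 0.05, Dusp1, a phosphatase that is also glucocorticoid-responsive, at 0.45 ± 0.15 (adjusted p = 0.38). Fos and Junb stood at 0.45 and 0.35, and Nr4a2 at 0.0001. Of the circadian genes 1 was higher and 1 lower, the output factors Tef at 0.094 ± 0.037 and Dbp at -0.088 ± 0.041, and the 16 genes had a median of 0.086 that was -0.012 with the neighbouring-region markers as a covariate. Cirbp, a cold-inducible RNA-binding protein, stood at 0.35 ± 0.091 (adjusted p = 0.229), with signals of 2167 to 3183 (median 2765) in the controls and 3082 to 3843 (median 3357) in the STZ arrays. Control 1 alone reached the STZ range.

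**Figure D3:**
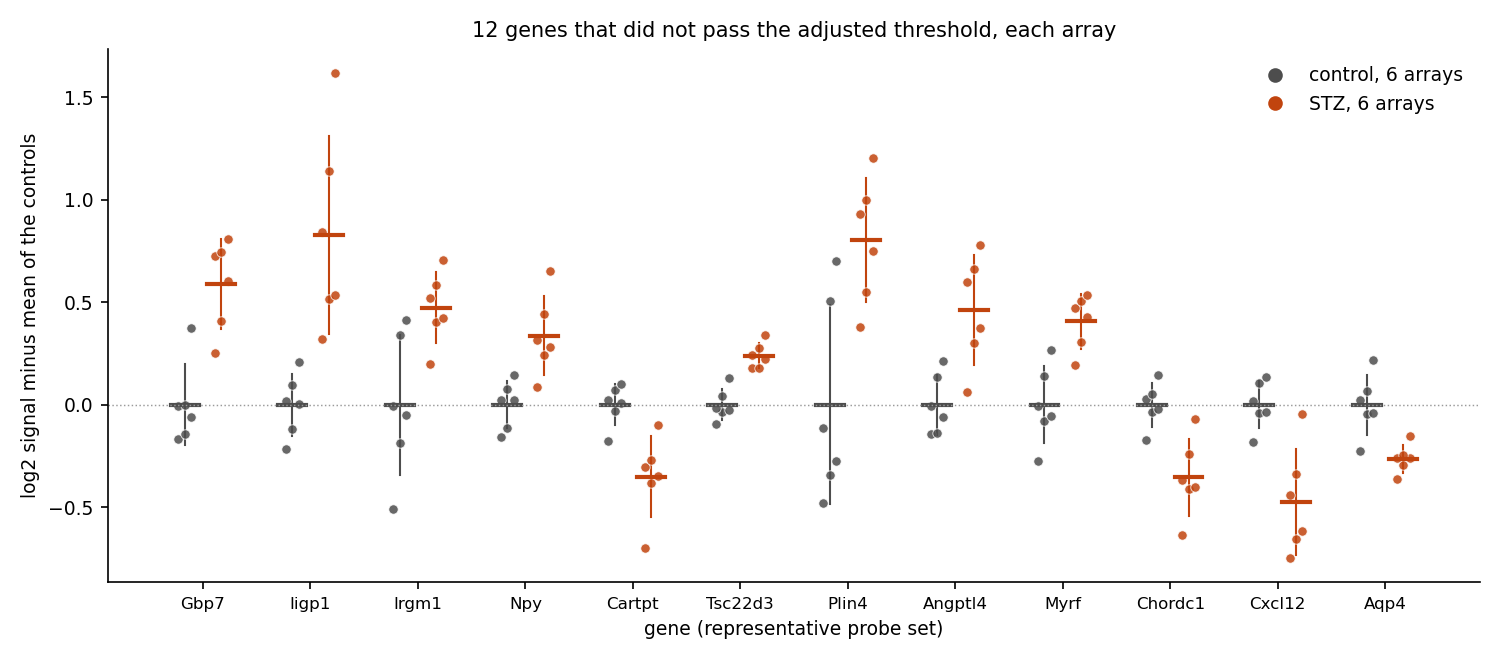
Log2 signal of each array minus the mean of the controls for 12 genes named in the text that did not pass the adjusted threshold. Dots are arrays, horizontal bars group means and vertical lines 1 SD. Iigp1 and Tsc22d3 show no overlap, and the other genes overlap by 1 or more arrays.

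Cholesterol synthesis, named in the study's title, and fatty acid synthesis are driven by SREBP transcription factors. Of 8 mevalonate genes 3 were lower at an unadjusted p under 0.05 and 0 higher (median -0.12), and of 10 sterol-step genes 2 were lower (median -0.042). These counts use 1 probe set per gene. The mevalonate gene Hmgcs1, not among the 3, passed the adjusted threshold on a probe set when control 2 or STZ 1 was left out, but not with all arrays. Idi1 ran at 2865 to 3765 (median 3259) in the controls and 2506 to 3103 (median 2639) in the STZ arrays, Fdps at 3014 to 3472 (median 3319) and 2515 to 3299.8 (median 2900.0), and Sqle, the squalene epoxidase of the sterol list, at 3263 to 3850.4 (median 3615) and 2683 to 3431 (median 3179). Fdft1, the squalene synthase, stood at -0.15 ± 0.046. In each of these 4 the groups overlapped, and the adjusted p ran from 0.247 to 0.361. By the probe set that stood for each gene, Elovl5, a fatty acid elongase, was the 1 lipid synthesis gene without overlap. It stood at -0.18 ± 0.047 (adjusted p = 0.214), with signals of 6781 to 7618 (median 6909) in the controls and 5713 to 6678 (median 6340.0) in the STZ arrays. Of 15 fatty acid genes 12 were negative and 4 had an unadjusted p under 0.05, all lower: Elovl5, Elovl6, Acss2 and the desaturase Fads1 at -0.10 ± 0.04. Fasn and Scd1 stood at -0.093 and -0.15, and Srebf2, the sterol-sensing factor, at -0.055 ± 0.054. Lcat, which esterifies cholesterol in lipoproteins, stood at -0.31 ± 0.08 (adjusted p = 0.204), with signals of 1239.8 to 1389 (median 1300.2) in the controls and 915.5 to 1255 (median 1009.7) in the STZ arrays. Abcg4, a sterol exporter, stood at -0.13 ± 0.053 on its brightest probe set and at 0.14 on the other.

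Chaperones hold unfolded proteins for refolding and are induced by heat and misfolding. Of 18 cytosolic heat shock genes 14 were negative and 7 had an unadjusted p under 0.05, all lower, with a median of -0.082 (-0.12 to -0.063 over the other settings). Chordc1, a co-chaperone of Hsp90, stood at -0.35 ± 0.075 (adjusted p = 0.103), with signals of 2601 to 3247 (median 2940.2) in the controls and 1891 to 2799 (median 2243) in the STZ arrays, with STZ 1 alone inside the control range. Cryab, a small heat shock protein, stood at -0.35 ± 0.084 (adjusted p = 0.172) and Hsph1 at -0.21 ± 0.058. Hspa1a and Hspa1b, the inducible Hsp70 genes, stood at -0.36 and -0.33; they are near-identical and may share probes. Fkbp4, which carries steroid receptors with Hsp90, stood at -0.21 ± 0.058, but its second probe set gave 0.095. Bag3, a co-chaperone of selective autophagy, stood at 0.34. In mitochondria, the chaperonin pair Hspe1 and Hspd1 stood at -0.28 ± 0.086 and -0.10 ± 0.042, 2 of 10 in that list.

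In the endoplasmic reticulum 15 of 19 chaperone and stress genes were negative and 4 had an unadjusted p under 0.05, all lower (median -0.082). Calr, a calcium-binding chaperone, stood at -0.15 ± 0.043 (adjusted p = 0.269), Dnajb11 at -0.26 ± 0.1, Sel1l, of the degradation pathway, at -0.16 ± 0.063, and Manf, a secreted stress factor, at -0.15 ± 0.06. The stress transcription factors Atf4 and Ddit3 stood at 0.034 and 0.029. Of 20 oxidative stress genes 1 was lower at such a p, Prdx3, the mitochondrial peroxiredoxin, at -0.12 ± 0.045. Gadd45g, at 0.23 ± 0.11, was the 1 of 8 DNA damage genes, and Hexa, a lysosomal hexosaminidase, at -0.24 ± 0.071, the 1 of 16 autophagy and lysosome genes.

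**Figure D4:**
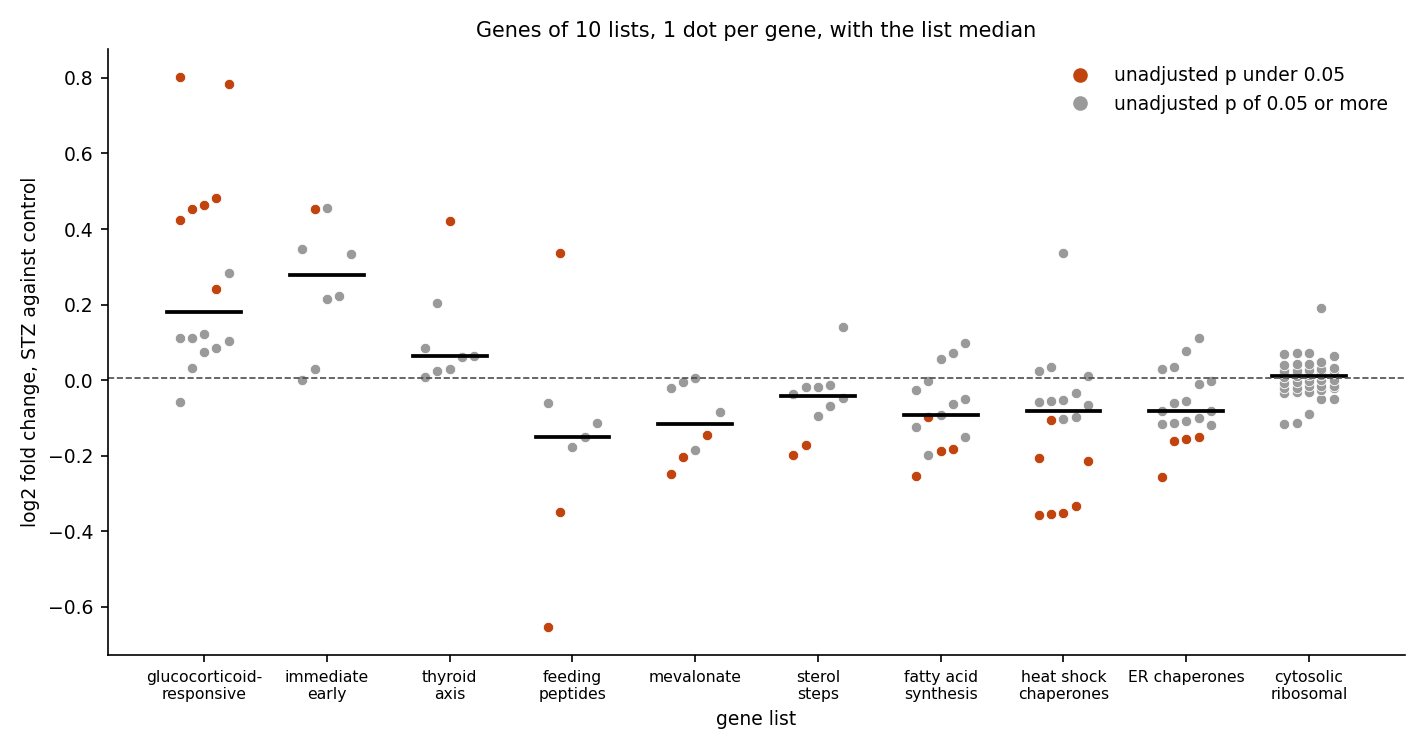
Log2 fold change of STZ against control for each tested gene of 10 lists. Orange dots have an unadjusted p under 0.05, black bars are list medians, and the dashed line is the median of all genes (0.0044). Orange dots of the glucocorticoid-responsive list all lie above 0 and those of the lipid and chaperone lists all below, while 43 cytosolic ribosomal proteins cluster at 0.

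The medians of housekeeping lists lay close to that of all genes. Cytosolic ribosomal proteins had 0 of 43 members at an unadjusted p under 0.05 and a median of 0.012, and Rpl39, with the smallest p, stood at 0.19 ± 0.11. Of 71 mitochondrial ribosomal proteins 2 were higher and 2 lower, Mrpl41 at 0.36 ± 0.15, Mrpl2 at 0.18 ± 0.065, Mrpl49 at -0.15 ± 0.057 and Mrpl22 at -0.13 ± 0.058. The Mrpl41 value came from controls 4 to 6, at 3272.8 to 3312.2. Controls 1 to 3, at 5241.4 to 5617.3, lay inside the STZ range of 5149.0 to 5949.6 (exact permutation p = 0.0823). Another Mrpl41 probe set gave 0.074 ± 0.066. Among 45 splicing factors Hnrnpl stood at 0.30 ± 0.097 and Tra2a at -0.20 ± 0.085, with a median of 0.0047. Of 15 amino acid genes 2 were higher, the glutamine transporter Slc38a2 at 0.16 ± 0.075 and Psat1, of serine synthesis, at 0.12 ± 0.048, and 1 lower, the transporter Slc38a3, at -0.17 ± 0.061. The cilium list had 3 of 20 lower, among them Ttc30a1, of intraflagellar transport, at -0.30 ± 0.1 and Ptch1, the Hedgehog receptor, at -0.12 ± 0.05. Imprinted genes had 1 higher and 2 lower of 21. Magel2, expressed in the hypothalamus and lost in Prader-Willi syndrome, stood at 0.25 ± 0.099, and Asb4 at -0.34 ± 0.13, with signals of 856.6 to 1676 (median 1400.3) in the controls and 917.9 to 1193 (median 981.9) in the STZ arrays. Cell cycle and matrix lists had 0 of 12 and 0 of 23.

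Genes of neurons and synapses had 0 list members past the adjusted threshold outside the feeding peptides. Of 20 potassium channels 3 were higher at an unadjusted p under 0.05: Kcna1, a delayed rectifier of axons, at 0.33 ± 0.099 (adjusted p = 0.318), Kcnma1, the large calcium-activated channel, at 0.16 ± 0.06, and Kcnn2, a small one, at 0.18 ± 0.081. Kcna3, named for the size of its value and outside that list, stood at -0.48 ± 0.13. Bin1 and Cplx1, of membrane bending and vesicle release, stood at 0.33 ± 0.10 and 0.18 ± 0.059, 2 of 25 vesicle genes. The other Cplx1 probe sets gave -0.016 ± 0.04 and -0.11 ± 0.077. Of 11 GABA genes 1 was lower, the receptor subunit Gabra2, at -0.17 ± 0.081, and 0 of 14 glutamate, 0 of 12 aminergic and 0 of 18 sodium and calcium channel genes had such a p. General neuron markers had a median of -0.035, and Rbfox3, the NeuN antigen, stood at 0.18 ± 0.08.

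The medians of glial and vascular marker lists lay near 0, and 0 of their members passed. Myrf, the transcription factor that drives myelin genes, stood at 0.41 ± 0.081 (adjusted p = 0.0792), with signals of 2322 to 3377 (median 2749) in the controls and 3204 to 4072 (median 3834) in the STZ arrays, with control 3 alone inside the STZ range. Of the myelin genes, Mbp, Mag and Mobp stood at 0.0002, -0.024 and 0.1, and Ugt8a, of myelin lipid synthesis, at -0.20 ± 0.071. The 12 oligodendrocyte markers had a median of 0.011, and Sox10 was at 0.29 ± 0.10. Aqp4, the water channel of astrocyte endfeet, stood at -0.26 ± 0.058 (adjusted p = 0.134), with signals of 6169 to 8384 (median 7181) in the controls and 5615 to 6486 (median 6024) in the STZ arrays, and its second probe set at -0.24 ± 0.067. Gfap stood at -0.078 ± 0.072, and Agt, the angiotensin precursor made by astrocytes, at 0.23 ± 0.077. Cxcl12, a chemokine of vessels, stood at -0.47 ± 0.098 (adjusted p = 0.0973), with signals of 1042 to 1300.4 (median 1175) in the controls and 703.8 to 1147 (median 820.9) in the STZ arrays. Its other probe set, at -0.12 ± 0.16, did not share the size. Rgs5, a pericyte gene, was at -0.11 ± 0.049. Precursor markers of oligodendrocytes gave the lowest p among 15 marker lists in the per-array means, 9.32 against 9.48 (exact permutation p = 0.039, 0.585 after Benjamini-Hochberg adjustment over the lists), and their summed signal ran from 2361 to 3651 in the controls and from 2517 to 3090 in the STZ arrays.

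**Figure D5:**
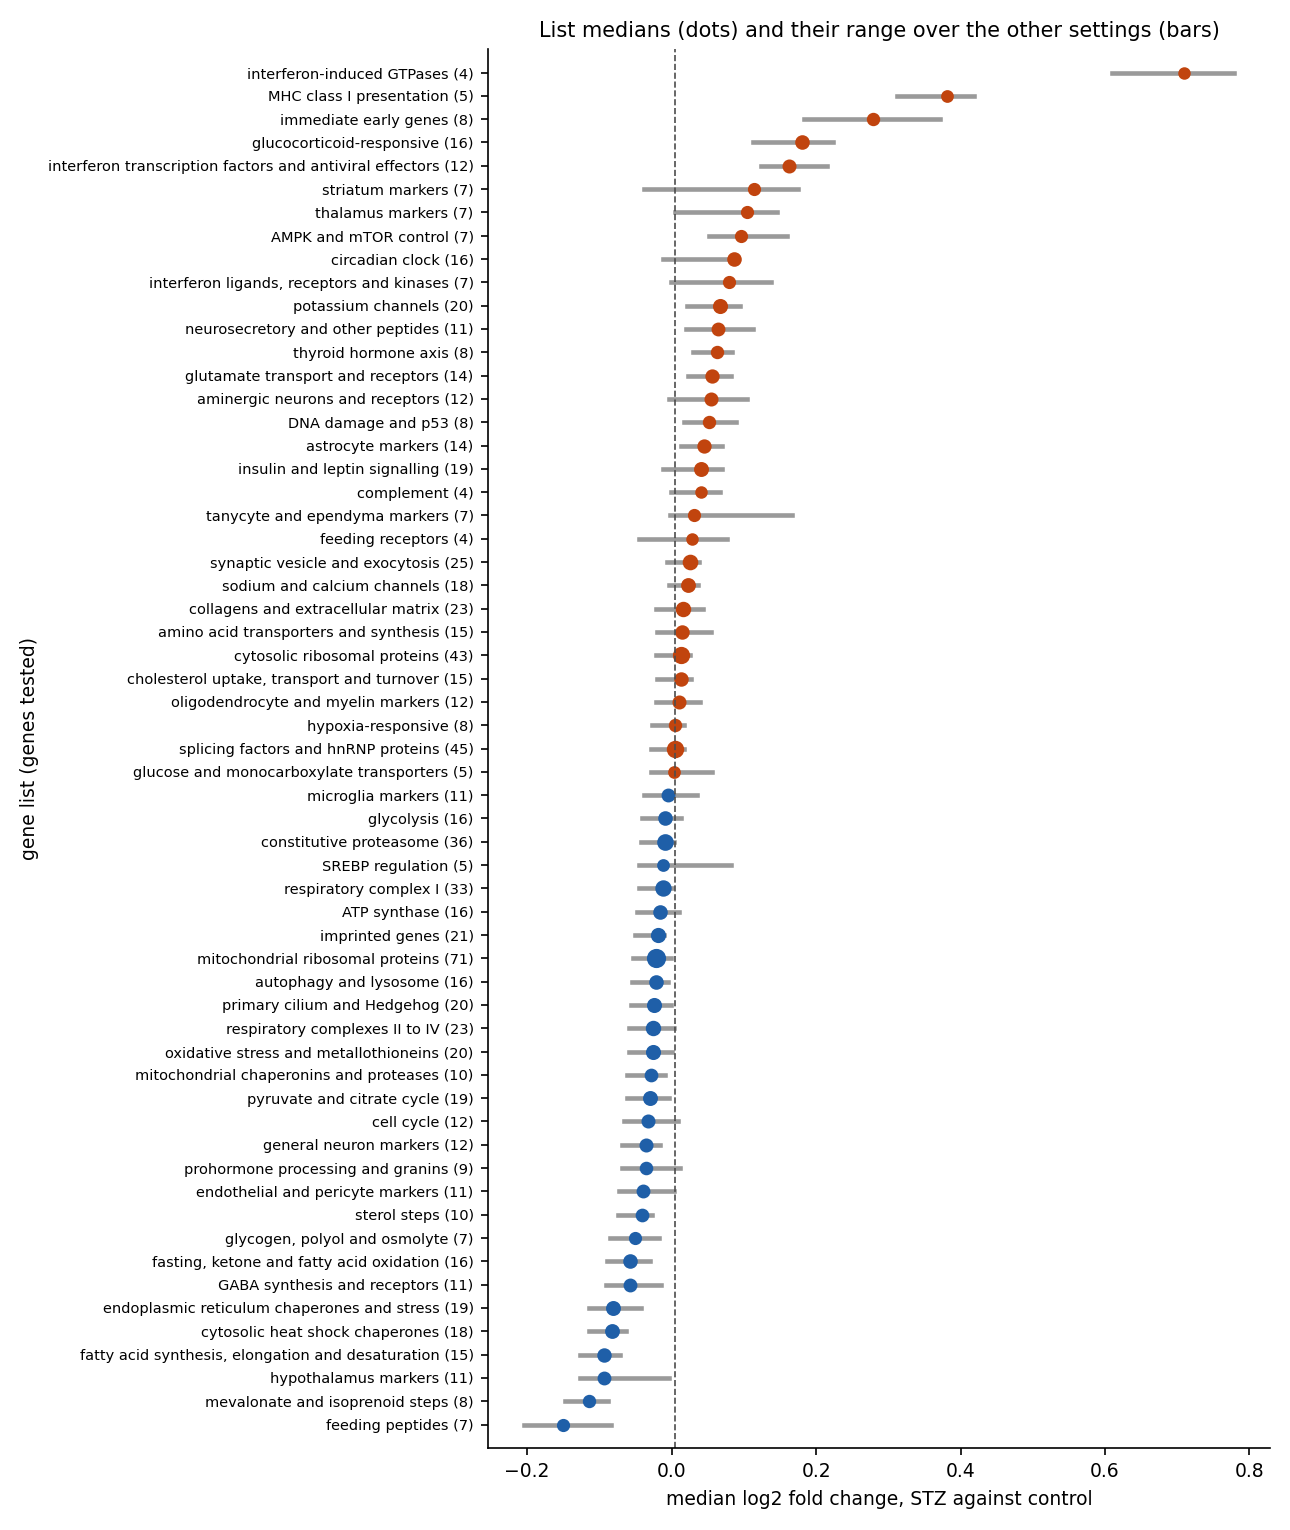
Median log2 fold change of STZ against control for each list with at least 4 tested genes, with the number tested in brackets. Dots are medians (larger for longer lists, orange above 0 and blue below), bars their range over the other settings and left-out arrays, and the dashed line the median of all genes. Interferon-induced GTPases (0.71) and MHC class I (0.38) lie highest, and feeding peptides (-0.15) lowest.

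Striatal markers, from tissue beside the hypothalamus, were all positive (7 of 7, median 0.11, from -0.038 to 0.18 over the other settings). On the probe set that stood for each gene, 0 had an unadjusted p under 0.05. The thalamic marker Ramp3 stood at 0.64 ± 0.18 (adjusted p = 0.26), with STZ 4 as the lowest STZ array. Crym, a thyroid hormone binding protein listed here with tanycyte markers, was highest in STZ 4, at 3369.6 against 1999.9 in the next array, and stood at 0.31 ± 0.19. The striatal marker Ppp1r1b was also highest in STZ 4, at 3887.9 against 2668.0 in the next array, while Rasgrp2, another, was highest in STZ 1. Summed signals of the striatal markers ran from 14091 to 20678 in the controls and from 16664 to 26498 in the STZ arrays. Of 11 hypothalamus markers 9 were negative (median -0.094), Pomc and Cartpt among them.

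Among genes outside the lists, by the smallest p not passing, Htra1, a secreted serine protease, stood at 0.21 ± 0.049, Pink1, the mitochondrial quality-control kinase, at 0.19 ± 0.046, Rab5c, of early endosomes, at 0.38 ± 0.092, and Serpinb9, an inhibitor of granzyme B, at 0.50 ± 0.13. Pink1 and Rab5c groups did not overlap. On the lower side Smarca4, the ATPase of a chromatin remodeller, stood at -0.19 ± 0.042 (0.11 ± 0.11 on its other probe set), Fut8, a fucosyltransferase, at -0.25 ± 0.061, Mterf2 at -0.22 ± 0.055 and Acp6, a lysophosphatidic acid phosphatase, at -0.45 ± 0.10, all 4 without overlap on these probe sets. Cbfb, a partner of RUNX factors, was at -0.25 ± 0.063. By size alone, Sema6b stood at 0.73 ± 0.31 and Kptn at -0.56 ± 0.26, each with 1 array far from the rest of its group, and Cep89 at -0.50 ± 0.15. All of these had an adjusted p of 0.134 or more.

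The ob/ob arrays share the 6 controls, so their values are given beside those of STZ, and the difference was tested as ob/ob minus STZ, where 5 probe sets passed (0.0368%). B2m stood at -0.10 ± 0.062 in ob/ob, and the difference from STZ of -0.48 ± 0.062 passed (adjusted p = 0.00284). H2-K1 stood at -0.053 ± 0.094 in ob/ob and differed from STZ by -0.59 ± 0.094 (adjusted p = 0.0298). Gbp7 stood at -0.10 ± 0.12 and differed by -0.69 ± 0.12 (adjusted p = 0.0308). For Igtp, at 0.0099 ± 0.19 in ob/ob, the difference of -1.01 ± 0.19 missed the threshold (adjusted p = 0.0721). The ob/ob signals were 5656 to 6384 (median 6265) for B2m and 324.7 to 537.4 (median 474.8) for Igtp, within or below the control range apart from the upper end of Igtp.

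Pomc, Slc2a1 and the probe set with several symbols passed in both models. The last rose by 0.56 ± 0.081 in ob/ob (adjusted p = 0.00645). Pomc fell by 0.75 ± 0.12 in ob/ob (adjusted p = 0.0121), to 845.3 to 1325 (median 953.3), and Slc2a1 rose by 0.29 ± 0.054 on the same probe set (adjusted p = 0.0305). The differences between the models were -0.10 ± 0.12 for Pomc, -0.024 ± 0.054 for Slc2a1 and 0.057 ± 0.081 for the probe set with several symbols. None passed, which does not show the models to be alike. Npy and Cartpt stood at 0.27 ± 0.081 and -0.29 ± 0.082 in ob/ob, Plin4 at 1.04 ± 0.20, which passed there (adjusted p = 0.0449), and Myrf at 0.46 ± 0.084, which also passed (adjusted p = 0.0305). Chordc1 fell in ob/ob by 0.48 ± 0.078 (adjusted p = 0.0121).

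The number of calls rested on single arrays. By limma, leaving out STZ 4 gave 0 probe sets past the adjusted threshold and 934 at an unadjusted p under 0.05, and leaving out STZ 5 gave 0 and 875. The adjusted count was 1 when control 5 was dropped, 4 when either control 1 or control 4 was dropped, 12 for STZ 3 and 18 for STZ 1. The fold changes of the called probe sets moved less when any 1 array was left out or any of 11 other settings was used. Igtp stayed between 0.87 and 1.18, B2m between 0.35 and 0.41, the brightest H2-K1 probe set between 0.5 and 0.58 and Pomc between -0.72 and -0.59. These ranges do not cover the averaging of a gene's probe sets, and the other B2m probe set stood at 0.22 ± 0.069. The probe set with several symbols passed in 10 of the 12 fits with 1 of these arrays left out (adjusted p at most 0.087 in any fit). B2m passed in 9 (at most 0.0637), as did the dimmer H2-K1 probe set, Slc2a1 in 8, the brightest H2-K1 probe set in 7, Igtp in 4 and Pomc in 3. Igtp and Pomc also missed the threshold when ob/ob 1 or ob/ob 3 was left out, and Igtp when ob/ob 4 was. With every ob/ob array left out of the fit 6 probe sets passed, and Igtp did not.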

How the data were processed

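RNA of 17 hypothalami was measured on Affymetrix mouse arrays, and the 12 control and STZ arrays are described here. The authors deposited 1 signal intensity per probe set and array on a linear scale, made with MAS5, per the submitters' processing notes; its version, scaling target and detection calls are not given in the sources used here. The 2% trimmed mean was 1500.4 on each array, which shows scaling to 1 common value. Groups and replicate numbers were read from the array titles, 0 pairs of arrays were identical, and no batch is labelled. In some named genes, among them Mrpl41, Ugt8a, Cirbp and Pomc, controls 1 to 3 lay apart from controls 4 to 6. The source of that split was not tested.

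Log2 signals of 22626 probe sets, 64 controls left out, were filtered at the 40th percentile of the mean over 17 arrays. Means of the 3 groups were estimated with limma 3.58.1 in R 4.3.3 (lmFit, eBayes with a trend), with Benjamini-Hochberg adjustment over 13576 probe sets. Of the probe sets 20380 had 1 symbol, 691 several and 1555 none. The brightest probe set that passed stood for a gene, an _x_at one only where no other passed. The number of arrays limits precision. The fit was tested on simulated data.

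The comparison and the 69 gene lists were chosen with earlier results of these data known. Named genes were those that passed, the 12 higher and 12 lower with the next smallest p, the 5 largest changes each way at an unadjusted p under 0.05, up to 6 members of each list by p and genes of interest chosen by name. Other list members named are examples, chosen with their values seen. The alternatives were other filters, scalings, models and covariates, and each array left out in turn. P-values measure the spread between these mice.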

Additional observations from a re-analysis of the deposited data

Results flagged for a closer look

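For 3 genes the value in STZ arrays differed from that in ob/ob arrays by the limma contrast of ob/ob minus STZ: B2m by -0.48, H2-K1 by -0.59 and Gbp7 by -0.69 on the log2 scale (adjusted p = 0.00284, 0.0298 and 0.0308). In each, the STZ arrays lay higher than the ob/ob arrays.

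In 16 named genes 1 array of a group of 6 lay far from the others, judged by its gap to the nearest array over the group's range. Chance flags about 1 in 20 groups, and 159 named genes were looked at in 2 groups. STZ 4 was the array in 5 of them: it was lowest for Htra1 (0.758), Kptn (0.639), Ifngr1 (0.659) and Ramp3 (0.746) and highest for Crym (0.625). STZ 3 was highest for Avp (0.633), Oxt (0.728) and Slc2a3 (0.703) and lowest for Rasgrp2 (0.636). STZ 1 was highest for Pink1 (0.682), and STZ 6 lowest for Srebf2 (0.692). Among the controls, control 3 was highest for Gbp7 (0.691) and lowest for Sema6b (0.776), control 5 lowest for Rab5c (0.752), control 6 highest for Fdft1 (0.672) and control 2 highest for Kcnn2 (0.639).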

How the results depend on the processing

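Leaving out 1 array at a time gave 0 to 18 probe sets past the adjusted threshold in place of 7, and 1 to 4 of those 7 probe sets differed between ob/ob and STZ in place of 3 (1 of B2m and 2 of H2-K1). That second count was 1 without the signal filter. With each array centred on its median, 183 genes were higher at an unadjusted p under 0.05 in place of 340, and the median of all genes moved to -0.028. The remaining settings gave 5 to 10 probe sets. Without the signal filter 7 passed, all higher, of which 5 were shared with the main fit. A probe set of Kcnj9 was called there and not in the main fit. Of 3781 values of named genes under these settings 3726 kept their direction and side of the threshold, and 1 turned: averaging both probe sets gave 0.0082 for the Abcg4 log2 fold change, STZ against control, since the dimmer one stood at 0.14. Replicate numbers did not pair the arrays: same-numbered arrays correlated at -0.082 to 0.063, and 1 of 6 matched its own number best. With the replicate block 5 probe sets passed, and 335 genes were higher and 302 lower at an unadjusted p under 0.05. Apart from Abcg4, causes of these moves were not tested. Detection calls were not used here, and folds of some probe sets under the filter, such as Psmb9 (SE 0.52), are imprecise.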
